A study of Homo sapiens with 18 samples.

Results

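GFP low and GFP high Raji cells were compared at 24 h, the earliest time in the series. The comparison rests on 6 of the 18 libraries, 3 per GFP level, chosen from the GFP level and time given in the labels and the column names, with no measured value used. Raji is an established human B cell line from a Burkitt lymphoma. Every library carries the genotype label Smarca4+/+, and the series text describes a degron with which auxin removes the SMARCA4 protein. The 2 groups are GFP_HIGH at 24hr and GFP_LOW at 24hr, and the other 12 libraries hold the same GFP levels at 48 and 72 h. The column names of the unnumbered library set join GFP with BRG1, another name for SMARCA4. Those of sets 1 and 2 give GFP alone. What GFP reports, how the cells were sorted, whether and in which groups auxin was given, and from which event the hours run were not stated in the sources used here. No group without a GFP label was analysed here, and all libraries come from 1 cell line. Separate cultures are not named either, so p-values measure the spread between libraries, which may be technical.

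SMARCA4 is the ATPase that drives BAF (SWI/SNF) complexes, which slide and eject nucleosomes and so open enhancers and promoters to transcription factors. SMARCA2 is its paralog and can take the same place in the complex. In B cells BAF works beside factors such as PU.1 and PAX5 to set which immune genes can respond to antigen receptor signals. A degron acts on the protein, so the transcript of its target need not fall.

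The 6 libraries held 28650906 to 55419458 counts in genes. The GFP low libraries at 24 h stand apart from the other 15 in their share of ribosomal protein and short transcripts, and since they are the whole group, no result at 24 h can be given without them. Cytosolic ribosomal protein genes took 4.44 to 4.50% of counts there, 6.60 to 6.65% in GFP high at 24 h, and 6.20 to 6.94% in the 12 later libraries. Replication histone genes took 0.371 to 0.393% in GFP low and 0.699 to 0.744% in GFP high at 24 h, and 0.478 to 0.842% in the later libraries. Transcripts of the mitochondrial genome took 3.48 to 3.64% against 4.27 to 4.62%, and 2.67 to 3.98% in the 12 later libraries, so GFP low does not stand apart on this measure. As shares of a bulk library, these values cannot tell fewer cells of a type from less RNA per cell.

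**Figure D1:**
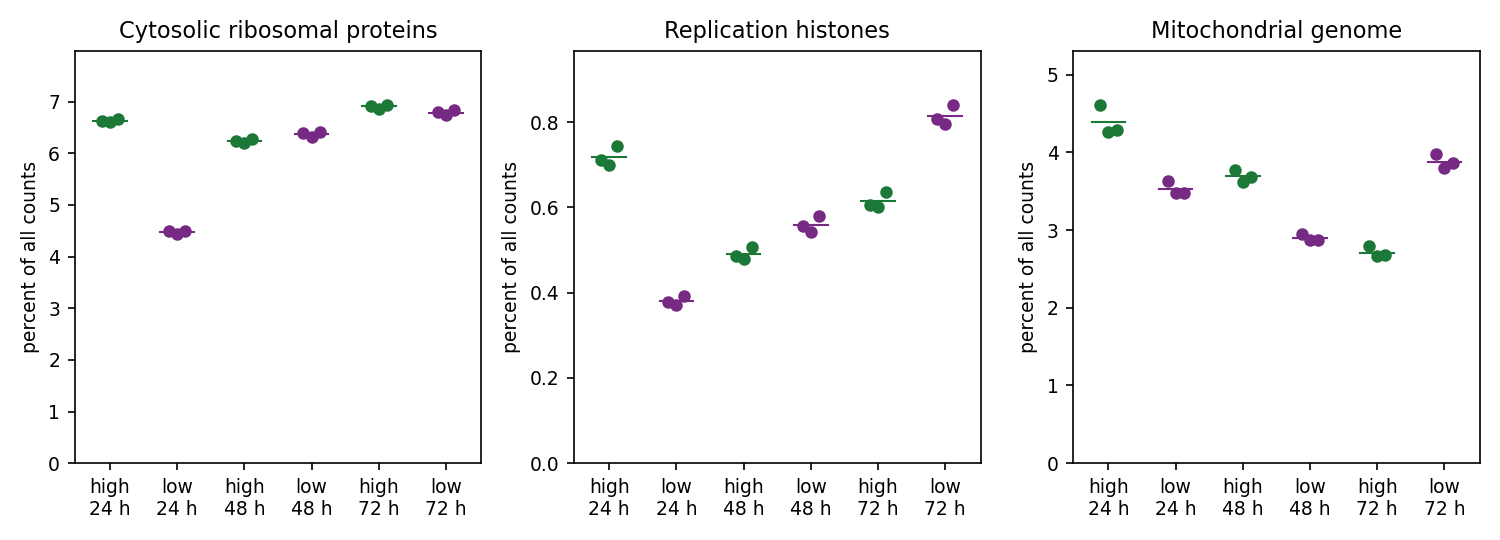
Percent of all counts in each library (points; bars, means of 3 libraries) from cytosolic ribosomal protein genes, replication histone genes and the mitochondrial genome, by GFP level and time, with the vertical axes starting at 0. For ribosomal proteins the 3 GFP low libraries at 24 h lie at 4.44 to 4.50%, below the other 15.

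Of 16474 genes tested, 9531 (57.9%) had a Benjamini-Hochberg adjusted p below 0.05 in edgeR's quasi-likelihood test at 24 h. In GFP low 4835 stood higher (29.3%) and 4696 lower (28.5%). The changes were mostly small. Among called genes 61.95% differed by less than 0.5 on the log2 scale, and the median absolute log2 change was 0.40. At least 2-fold differences were called for 519 genes higher (3.15%) and 400 lower (2.43%). The 3 values of one group did not overlap the 3 of the other for 61.8% of all tested genes, 32.1% with GFP low above and 29.8% with GFP low below. Counts of members in the gene groups described here are to be read against these shares. The fewer calls at 48 h (23.8%) and 72 h (26.4%) were made in the same fit. Where libraries were scaled to their total counts, 66.8% of calls were higher, against 50.7% with trimmed-mean scaling, and the median of all genes moved from 0.03 to 0.16 on the log2 scale.

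SMARCA4 (chr19:10960932-11079426, hg38) was measured at 414.4, 411.5 and 429 CPM (a gene's counts relative to the library total, scaled by trimmed means) in the GFP high libraries of the unnumbered set, set 1 and set 2. Its GFP low values in the same order, which is kept throughout, were 579.6, 574.9 and 614.2 CPM. The transcript was 1.41-fold higher in GFP low, a log2 fold change of 0.50 ± 0.03 (SE, n = 3 libraries per group) with an adjusted p of 3.27e-12 in edgeR's quasi-likelihood test. SMARCA2 (chr9:1980290-2193624) was at 49.86, 50.54 and 50.32 CPM in GFP high and at 66.28, 64.62 and 66.76 CPM in GFP low, 0.39 ± 0.03 higher on the log2 scale and 0.13 higher with the trend of the fold change with gene length removed. Neither gene's groups overlap. These are transcript levels and do not measure the SMARCA4 protein.

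The size of the difference followed gene length. Over 10117 protein-coding genes with at least 1 CPM, Spearman's rho between the log2 fold change at 24 h and the summed exon length was 0.471, across genes, which are not independent replicates. Within the library sets rho was 0.453, 0.469 and 0.470. At 48 and 72 h it was -0.0336 and 0.0507. The 126 genes with up to 1000 bp of exon had a median log2 fold change of -0.74, and 106 of them were called lower. The 358 genes with over 16000 bp had a median of 0.27, and 248 of them were called higher. Single libraries show where the trend sits. Genes of up to 1000 bp lay 0.492 to 0.566 below their mean over all libraries (log2 CPM) in the GFP low libraries at 24 h, and between 0.0197 below and 0.241 above it in the other 15.

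**Figure D2:**
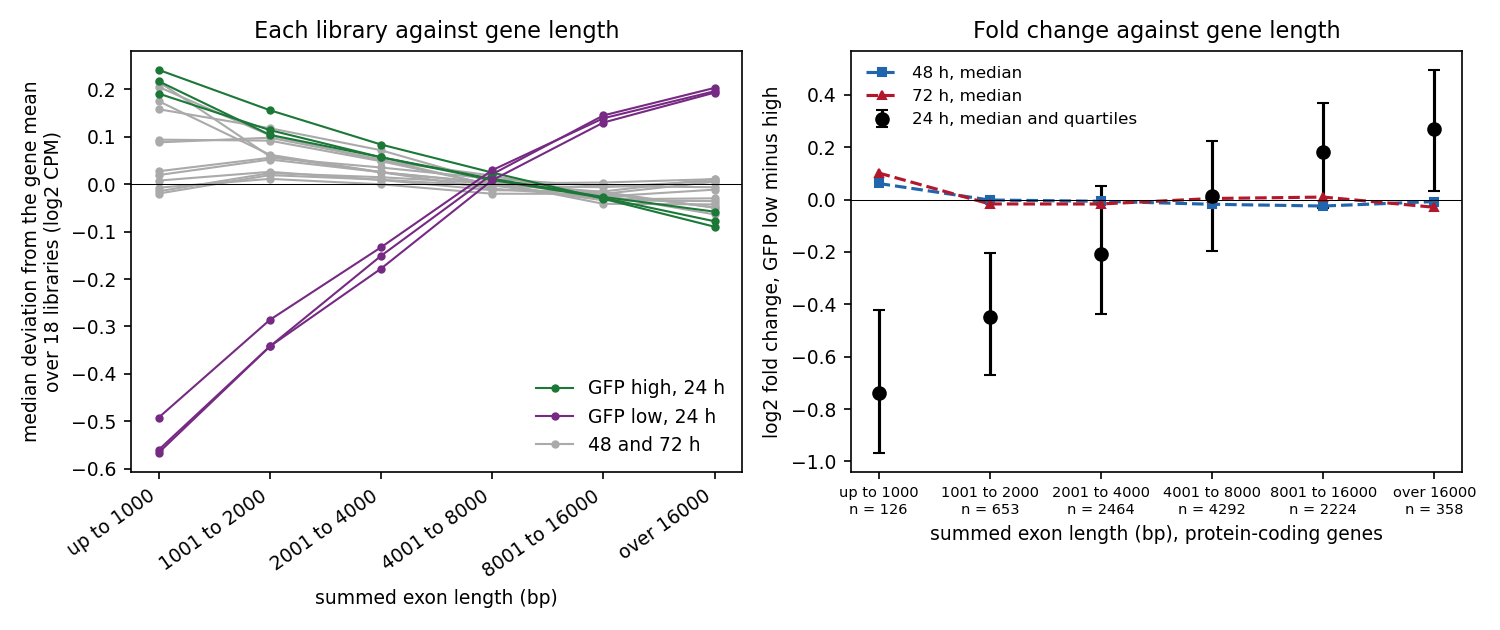
Left, median deviation of protein-coding genes from their mean over 18 libraries (log2 CPM) against summed exon length in bp, 1 line per library. Right, median log2 fold change (GFP low minus high) in each length bin, with bars from the lower to the upper quartile of genes at 24 h. The 3 GFP low libraries at 24 h run from below -0.49 in the shortest genes to 0.19 or more in the longest, and the medians at 48 and 72 h stay near 0.

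A second fit removed each library's trend with exon length. This length sums all annotated exons of a gene, and the RNA present may be shorter, so the removal is approximate for single genes. The second fit called 6183 genes higher (37.5%) and 3971 lower (24.1%), and 60.9% of its calls were higher. The calls of both fits shared 3929 genes higher and 3303 lower, while 94 went from higher to lower and 187 from lower to higher. SMARCA4 kept its direction at 0.26 ± 0.03, with an adjusted p of 3.35e-07 in edgeR's quasi-likelihood test. Since short genes include ribosomal proteins, histones and small RNAs, the counts or median with the length trend removed stand beside the groups, and the value with the trend removed beside many of the named genes that it moves.

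The highest fold changes among well-measured genes belonged to surface, signalling and trafficking genes. CCR7 (chr17:40553769-40565472), the chemokine receptor for entry into T cell areas of lymph nodes, was at 7.282, 8.444 and 7.496 CPM in GFP high. In GFP low it was at 33.94, 31.05 and 33.18 CPM, every value above those of GFP high. The fold change was 4.23, or 2.08 ± 0.09 on the log2 scale, with an adjusted p of 1.69e-14 in edgeR's quasi-likelihood test. RAB27B, a GTPase of vesicle secretion, stood at 11.38, 12.23 and 12.02 CPM in GFP high against 38.14, 39.5 and 38.92 CPM. PRDM1 (chr6:105993463-106109939), which encodes Blimp-1, the repressor that drives plasma cell differentiation, was at 24.45, 27.32 and 26.8 CPM in GFP high. In GFP low its values were 70.01, 69.53 and 69.41 CPM, with nearly no spread on that side. The difference was 2.65-fold, with log2 ratios of 1.515, 1.346 and 1.371 within the library sets.

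Other genes of the 15 with the largest increase covered the cytoskeleton, lipid export and chromatin. MAP1A (microtubule binding) was 3.22-fold higher, CLIP2 (microtubule ends) 2.33-fold and NAV1 (neuron navigator) 2.21-fold. The B cell signalling adaptor THEMIS2 was 2.96-fold higher, and RINL, a Ras and Rab interactor family member, 2.77-fold. ARHGAP31, a brake on Rac and Cdc42, was 2.70-fold higher. ABCA1, the cholesterol exporter, rose from 10.62 to 11.67 CPM across GFP high to 27.23 to 31.1 CPM across GFP low. AFF1, a scaffold of the super elongation complex, was 2.28-fold higher, and the adhesion molecule NECTIN1 was 2.22-fold higher. The ubiquitin ligase RNF213, the kelch protein IPP and titin (TTN) were 2.39-, 2.29- and 2.33-fold higher. TTN has the longest exon sum of these genes, and its log2 fold change went from 1.22 to 0.74 with the length trend removed. The other 14 kept at least 0.85 on that scale.

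Among the 15 largest decreases, 6 were linker or core histones, and the rest ranged over signalling, secretion and mitochondrial import. SH2D1A (chrX:124227868-124373197), which encodes SAP, the adaptor of SLAM receptors, was at 75.19, 80.19 and 76.43 CPM in GFP high and at 20.92, 20.19 and 18.64 CPM in GFP low. It was 3.90-fold lower, with a log2 fold change of -1.96 ± 0.04 and an adjusted p of 9.38e-20 in edgeR's quasi-likelihood test, and -1.77 with the length trend removed. JCHAIN (chr4:70655541-70681817), the joining chain of secreted IgM and IgA, was at 723, 703.3 and 671.2 CPM in GFP high and at 288, 286.2 and 265.8 CPM in GFP low. So PRDM1 was higher and JCHAIN lower in the same libraries. The chemokine CCL4 was 2.61-fold lower, and GRAP, a Grb2-like adaptor, had a log2 fold change of -1.32. VAMP8, a SNARE of secretory granules, was 2.80-fold lower. CKS2, a small subunit of cyclin-dependent kinases, was 2.64-fold lower. PRADC1, a secreted protein, was 2.60-fold lower, and TIMM8B, a chaperone of mitochondrial import, 2.47-fold lower. VAMP8, CKS2 and TIMM8B have exon sums of 895, 616 and 1166 bp, and their log2 fold changes shrank from -1.49, -1.40 and -1.30 to -0.88, -0.67 and -0.79 with the length trend removed.

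**Figure D3:**
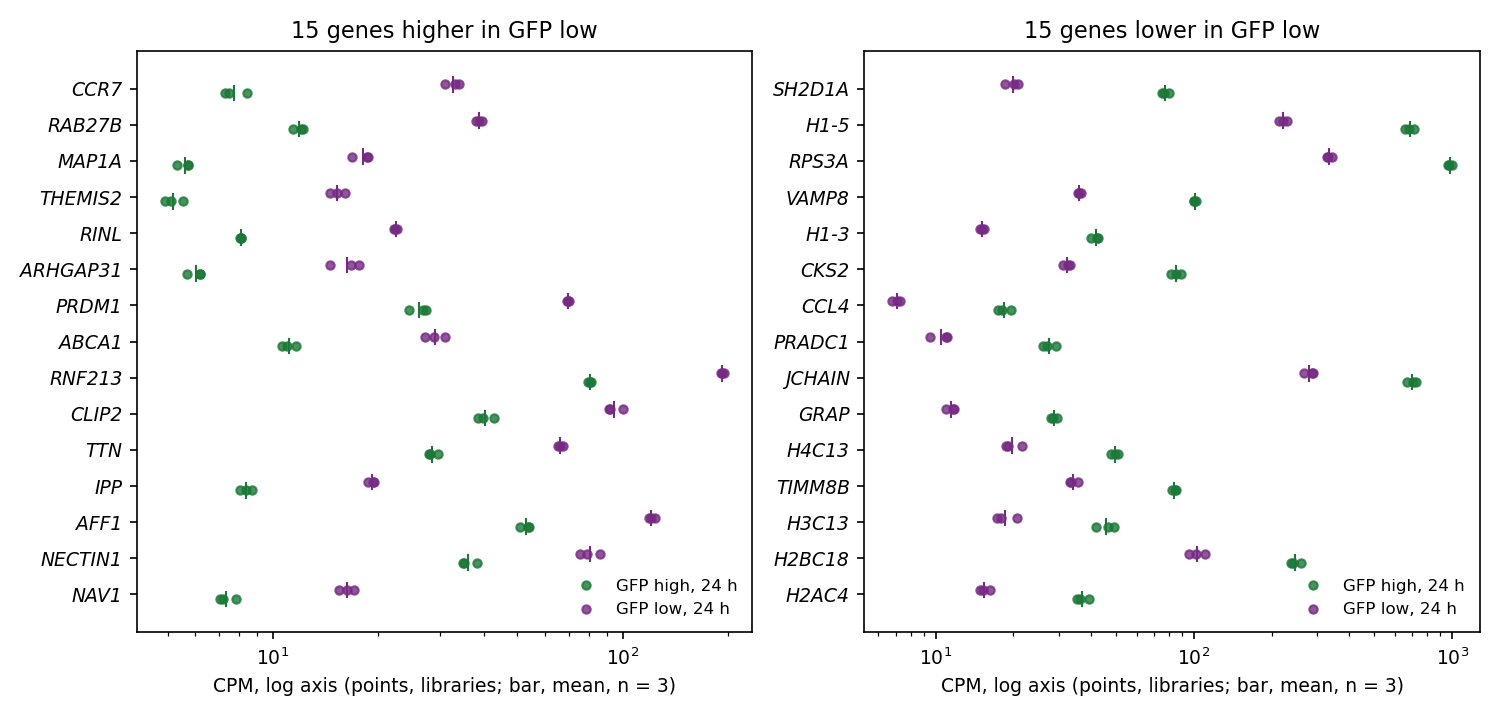
CPM on a log axis of the 15 genes with the largest fold change in each direction at 24 h among well-measured protein-coding genes, with 1 point per library and a bar at the mean of 3. For every gene shown the GFP low points lie on one side of the GFP high points, as in CCR7 (7.282 to 8.444 against 31.05 to 33.94 CPM).

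The machinery of protein synthesis was lower in GFP low almost throughout. Ribosomal proteins are the structural parts of the ribosome, and many of their transcripts begin with a C followed by a pyrimidine run (a TOP sequence) through which mTOR signalling controls their translation. All 32 small subunit genes tested were called lower, with a median log2 fold change of -0.77, and all 47 large subunit genes, with a median of -0.67. With the length trend removed 31 and 45 were lower, with medians of -0.51 for both groups. The median of all tested genes was 0.03, and 0.12 with the trend removed. For the protein-coding genes tested these medians were 0.01 and 0.02. At 48 h 8 small and 7 large subunit genes were called lower, where 13.2% of all genes were, and 1 of each was called higher, where 10.6% were. At 72 h 6 small and 9 large subunit genes were lower (13.5% of all genes) and 10 and 6 were higher (12.9%).

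The starts of 4 genes of this machinery are shown because they carry the pyrimidine run in question. Each runs from 60 bases before the RefSeq start to 20 bases after it (GRCh38.p14), with the pyrimidine run in capitals. The positions are chr4:151099568-151099647 (plus strand) for RPS3A, chr6:33272015-33272094 (plus) for RPS18, chr11:8682732-8682811 (plus) for RPL27A and chr6:73521013-73521092 (minus) for EEF1A1. These 4 were picked after their values were seen.
RPS3A: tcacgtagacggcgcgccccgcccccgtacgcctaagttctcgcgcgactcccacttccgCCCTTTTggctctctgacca
RPS18: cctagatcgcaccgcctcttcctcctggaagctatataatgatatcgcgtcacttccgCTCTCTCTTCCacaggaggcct
RPL27A: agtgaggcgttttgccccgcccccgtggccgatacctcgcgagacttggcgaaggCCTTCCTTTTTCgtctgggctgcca
EEF1A1: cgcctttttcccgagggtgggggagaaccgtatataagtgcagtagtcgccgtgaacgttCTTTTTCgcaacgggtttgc

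RPS3A (chr4:151099624-151104642), a small subunit protein, showed the largest fall of the 79. It was at 996.3, 970.5 and 964.6 CPM in GFP high and at 343.1, 331.4 and 327 CPM in GFP low. The fold change was 2.93, or -1.55 ± 0.02 on the log2 scale, with an adjusted p of 2.3e-22 in edgeR's quasi-likelihood test, and -1.27 with the length trend removed. RPS18 went from 1332, 1332 and 1345 CPM to 576.3, 570.4 and 575.8 CPM. In the large subunit RPL9 was 2.23-fold lower and RPL35 2.02-fold lower, the latter at -1.01 on the log2 scale and -0.60 with the length trend removed. RPL27A was at 1875, 1934 and 1919 CPM in GFP high and at 1090, 1057 and 1068 CPM in GFP low. Ribosomal protein genes and EEF1A1 have many processed pseudogenes, so reads that could be split among copies make single values uncertain.

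Of 46 translation factors 39 were lower and 4 higher (36 and 4 with the length trend removed). EEF1A1, which brings charged tRNA to the ribosome, was at 15500, 15720 and 15700 CPM in GFP high and at 9849, 9835 and 9766 CPM in GFP low. Its annotated exons sum to 10063 bp, which need not be the length of its RNA. Its log2 fold change of -0.67 became -0.83 with the length trend removed. Its exchange factor subunit EEF1B2 was 2.10-fold lower. The exceptions included EIF3A, the scaffold of the initiation factor eIF3, at 0.33 ± 0.02, and EIF4G3, at 0.24 ± 0.02 (0.07 with the trend removed). Of the aminoacyl-tRNA synthetases and their partners 17 of 22 were lower and 2 higher (19 and 1 with the trend removed). The scaffold AIMP2 was 1.70-fold lower, its log2 fold change going from -0.77 to -0.41 with the trend removed, while the synthetase EPRS1 was 1.19-fold higher.

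Mitochondrial ribosomal proteins are encoded in the nucleus and are made from other genes than the cytosolic set. Of 77 tested, 72 were lower and 2 higher, with a median of -0.58, and 64 were lower and 4 higher with the length trend removed. MRPL13 went from 55.27, 51.37 and 52.95 CPM to 25.22, 26 and 28.04 CPM, and MRPL15 was 1.75-fold lower (-0.80 on the log2 scale, -0.44 with the trend removed). Ribosome assembly in the nucleolus was mixed, with 30 of 54 genes lower and 11 higher (21 and 13 with the trend removed). Its median was -0.09, and 0.04 under scaling to total counts. The short factors NHP2 (H/ACA particles) and IMP3 (U3 particles) were 1.84- and 1.74-fold lower, and UTP20, a large processing factor, was 1.19-fold higher. With the trend removed the log2 fold changes of NHP2 and UTP20 went from -0.88 to -0.44 and from 0.25 to 0.09. Of 26 SNHG genes, hosts of small nucleolar RNAs, 22 were lower and none higher. With the trend removed 16 were lower and 5 higher. At 72 h 18 were higher and none lower, beside 12.9 and 13.5% of all genes. SNHG29, with 7176 bp of annotated exon, was 1.73-fold lower, and DANCR, with 10179 bp, 1.79-fold lower. These sums need not be the lengths of the RNAs present.

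Of 42 proteasome genes 38 were lower and 2 higher, with a median of -0.44 (-0.27 with the length trend removed). The core particle subunits PSMB3 and PSMA5 were 1.91- and 1.76-fold lower (PSMB3 went from -0.93 to -0.42 on the log2 scale with the trend removed), while PSMD2, a base subunit of the regulatory cap, was 1.10-fold higher. In the cytosolic chaperonin TRiC and prefoldin 13 of 14 were lower and 1 was higher (11 and 2 with the trend removed), with CCT4 at 562.6 to 575.5 CPM in GFP high and 344.2 to 355.5 CPM in GFP low.

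Replication-dependent histones package new DNA, are made in S phase and end in a stem-loop in place of a poly(A) tail. Of 59 genes listed 53 were tested, and 49 of these were lower and none higher, 30 of them at least 2-fold. The median was -1.02, alike in the library sets at -1.01, -1.02 and -1.02. The genes are short, and with the length trend removed 39 were lower and the median was -0.37, nearer to 0 than that of the ribosomal proteins (-0.51). Many copies are near-identical, so single genes are less certain than the group.

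The 90 or 110 bases before the RefSeq start of 4 histone genes are shown for the letters CCAAT and TATAAA, which are common in these promoters and stand in capitals on either strand (GRCh38.p14). All lie on the minus strand, at chr6:27867589-27867678 for H1-5, chr6:26234988-26235077 for H1-3, chr6:27132796-27132885 for H2BC11 and chr6:26271414-26271523 for H3C8. H1-5 and H3C8 hold no TATAAA in these letters.
H1-5: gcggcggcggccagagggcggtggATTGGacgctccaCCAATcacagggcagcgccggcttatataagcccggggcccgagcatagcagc
H1-3: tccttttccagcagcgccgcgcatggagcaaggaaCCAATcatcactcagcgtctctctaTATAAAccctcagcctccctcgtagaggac
H2BC11: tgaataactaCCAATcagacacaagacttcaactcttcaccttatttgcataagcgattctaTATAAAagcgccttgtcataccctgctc
H3C8: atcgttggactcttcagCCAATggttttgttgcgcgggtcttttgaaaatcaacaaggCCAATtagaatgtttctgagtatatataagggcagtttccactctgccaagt

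RefSeq promoters, 250 bases before to 50 after the start, were found for 48 of the 53 histone genes. CCAAT, on either strand, was in 83.3% of them, against 39.7% of all genes in the promoter table and 44.8% of tested protein-coding genes. TATAAA was in 66.7%, against 14 and 8.49%. CCGGAAG, the core letters of ETS factor sites, was in 42.0% of the 69 mitochondrial ribosomal protein promoters found and in 44.2% of the 326 zinc finger promoters found. It was in 12.2% of all genes of the table and in 23.8% of tested protein-coding genes. The first of these groups was lower and the second higher in GFP low. Promoters were found for under 80% of ribosomal protein genes and of the genes with a 2-fold change, so no share is given for them. Such matches describe letters, not binding.

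H1-5 (chr6:27866792-27867588), a linker histone gene, was at 679.8, 657.7 and 713.1 CPM in GFP high and at 221.7, 213 and 230.3 CPM in GFP low. The log2 fold change was -1.62 ± 0.04, with an adjusted p of 1.86e-18 in edgeR's quasi-likelihood test, and -0.98 with the length trend removed. H1-3, another linker histone gene, was 2.74-fold lower. The core histone genes H4C13, H3C13, H2BC18 and H2AC4 were 2.48-, 2.44-, 2.39- and 2.39-fold lower. The log2 fold changes of H1-3, H4C13, H3C13 and H2AC4 went from -1.46, -1.31, -1.29 and -1.26 to -0.80, -0.41, -0.46 and -0.47 with the trend removed. H2BC18 (3196 bp) and H3C8 (2411 bp) have longer annotated exons, and their decreases changed little with the trend removed, to -1.09 from -1.26 and to -0.97 from -1.24. H4C3 (405 bp) went from -1.02 to -0.14 and was still called lower. The size of each shift is set by the annotated length, so it cannot show which decrease depends on length.

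Replacement histones are made outside S phase from ordinary poly(A) transcripts, and 7 of 8 tested were also lower, none higher, in both fits. H2AZ1, the variant at gene starts, went from 545.9 to 568.3 CPM in GFP high to 301 to 306.4 CPM in GFP low. CENPA, the centromere variant, was 1.69-fold lower (-0.76 on the log2 scale, -0.42 with the trend removed). CENP genes had 12 of 21 lower and 4 higher (12 and 2 with the trend removed), and their median went from -0.42 to -0.14. In the list of kinesins and spindle genes 21 of 31 were lower and 6 higher, with a median of -0.22 (19, 4 and -0.15 with the trend removed). The mitotic kinase PLK1 was 1.71-fold lower and SKA2, of the kinetochore coupler, 1.71-fold lower, while the long CENPF transcript was 1.27-fold higher (0.35 on the log2 scale, 0.16 with the trend removed). Control of G1 was mixed, with 11 of 24 lower and 6 higher (13 and 5 with the trend removed). The kinase CDK4 was at 181.1, 178.2 and 188.8 CPM in GFP high and at 107.5, 107.7 and 108.1 CPM in GFP low. The inhibitor CDKN2C was 1.35-fold lower as well (-0.43 on the log2 scale, -0.24 with the trend removed).

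Cytoskeletal genes lay in both directions. Of 33 tubulin and actin regulators 21 were lower and 9 higher, with a median of -0.45 (21, 8 and -0.18 with the length trend removed). TUBA1C was 2.00-fold lower and the actin-binding peptide gene TMSB10 1.90-fold lower, the latter near 0 (-0.09) with the length trend removed. The giant linkers MACF1 and SPTAN1 were 1.71- and 1.49-fold higher, or 0.77 and 0.57 on the log2 scale and 0.40 and 0.33 with the trend removed.

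RNA polymerase II showed its largest subunit and the rest on opposite sides. POLR2A, the catalytic subunit, was at 309.4, 302.7 and 318.9 CPM in GFP high and at 372.7, 369.4 and 387.2 CPM in GFP low, 0.28 ± 0.03 higher on the log2 scale. The other 11 subunits were all lower. POLR2F, shared by the 3 nuclear polymerases, was 2.24-fold lower, and -1.25 with the length trend removed. POLR2L, likewise shared, was 1.81-fold lower (-0.86 on the log2 scale, -0.33 with the trend removed). Of the genes of polymerases I and III 11 of 18 were lower and 2 higher (8 and 5 with the trend removed). The large POLR1A was 1.27-fold higher, its log2 fold change going from 0.34 to 0.07 with the trend removed, and the small POLR1H was 1.90-fold lower. With the trend removed 10 of the 12 polymerase II genes were lower and POLR2A still higher, at 0.16.

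Mediator, the bridge from enhancers to polymerase II, had 12 of 32 genes higher and 15 lower, and 9 and 9 with the length trend removed. Its kinase-module cyclin CCNC was 1.87-fold lower, whereas MED13L and MED1 were 1.35- and 1.26-fold higher, or 0.43 and 0.33 on the log2 scale and 0.09 and 0.20 with the trend removed. Spliceosome proteins were lower in 28 of 40 and higher in 5 (24 and 7 with the trend removed). The Sm proteins SNRPG and SNRPD2 were 2.04- and 1.97-fold lower, and PRPF8, the large core protein, 1.25-fold higher. Their log2 fold changes went from -1.03, -0.98 and 0.32 to -0.66, -0.54 and 0.14 with the trend removed. SR and hnRNP proteins were lower in 25 of 40 and higher in 10 (27 and 8 with the trend removed), with a median of -0.10, and 0.03 under scaling to total counts. SRSF3 and HNRNPC were 1.63- and 1.47-fold lower. The speckle scaffolds SRRM2 and SON were 1.38- and 1.25-fold higher, or 0.46 and 0.32 on the log2 scale and 0.26 and 0.12 with the trend removed.

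Lists of chromatin regulators (BAF, other remodellers, histone-modifying enzymes and Polycomb) held more higher than lower genes before the length trend was removed. With it removed, their medians lay at 0.01 to 0.11, beside 0.12 for all tested genes and 0.02 for the protein-coding genes tested. Of all tested genes 37.5% were then higher and 24.1% lower. Of the 11270 protein-coding genes tested 3760 were then higher and 3767 lower. Of 28 BAF subunits 15 were higher and 8 lower, with a median of 0.13. With the length trend removed 9 were higher and 8 lower, and the median was 0.01. BICRAL, of the noncanonical BAF complex, went from 45.86, 44.5 and 46.24 CPM to 76.59, 74.29 and 76.43 CPM, and kept 0.66 of its log2 fold change of 0.73 with the trend removed. ARID2, of the PBAF complex, was 1.41-fold higher (0.50 on the log2 scale, 0.30 with the trend removed). ARID1B was 1.35-fold higher, but its exon sum of 45931 bp left 0.06, with an adjusted p of 0.083 in edgeR's quasi-likelihood test, with the trend removed. ACTL6A, the actin-related subunit, was 1.56-fold lower, and the core subunit SMARCB1 1.16-fold lower, at -0.21 on the log2 scale and -0.45 with the trend removed.

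Of 35 other remodellers 21 were higher and 9 lower (14 and 12 with the length trend removed). CHD2 was 1.81-fold higher and BPTF, of the NURF complex, 1.62-fold higher. The deacetylase HDAC2 was 1.30-fold lower, at -0.38 on the log2 scale and -0.61 with the trend removed. Among enzymes that write or erase histone methylation and acetylation 34 of 43 were higher and 7 lower, with a median of 0.26. With the trend removed 23 were higher and 9 lower. The median was 0.11, beside 0.12 for all tested genes and 0.02 for the protein-coding genes tested. KMT2A, the H3K4 methylase, was at 227.6, 221 and 230 CPM in GFP high and at 382.4, 368.2 and 376.5 CPM in GFP low, and the acetylase EP300 was 1.42-fold higher. Their log2 fold changes went from 0.73 and 0.50 to 0.40 and 0.32 with the trend removed. PRMT1 and SUV39H2 were 1.55- and 1.45-fold lower. Polycomb genes were mixed, at 14 higher and 12 lower of 35 (10 and 11 with the trend removed), with EZH1 1.46-fold and JARID2 1.64-fold higher and RBBP7 1.30-fold lower.

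Zinc finger genes, most of which encode DNA-binding repressors, were higher as a family whether or not length was taken into account. Of 387 tested 215 were higher and 29 lower, with a median of 0.22. With the length trend removed 226 were higher and 25 lower, with a median of 0.21. At 48 h 21 were higher and 34 lower, beside 10.6 and 13.2% of all genes, and at 72 h 46 and 26, beside 12.9 and 13.5%. ZNF217 went from 88.94, 86.81 and 85.76 CPM to 136.3, 134 and 134.8 CPM. ZNF37A was 1.53-fold higher (0.61 on the log2 scale, 0.40 with the trend removed), and ZNF124 1.73-fold lower. The largest fold was that of ZNF763, at 0.0339 to 0.0748 CPM in GFP high and 0.267 to 0.492 CPM in GFP low, a level of few counts.

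**Figure D4:**
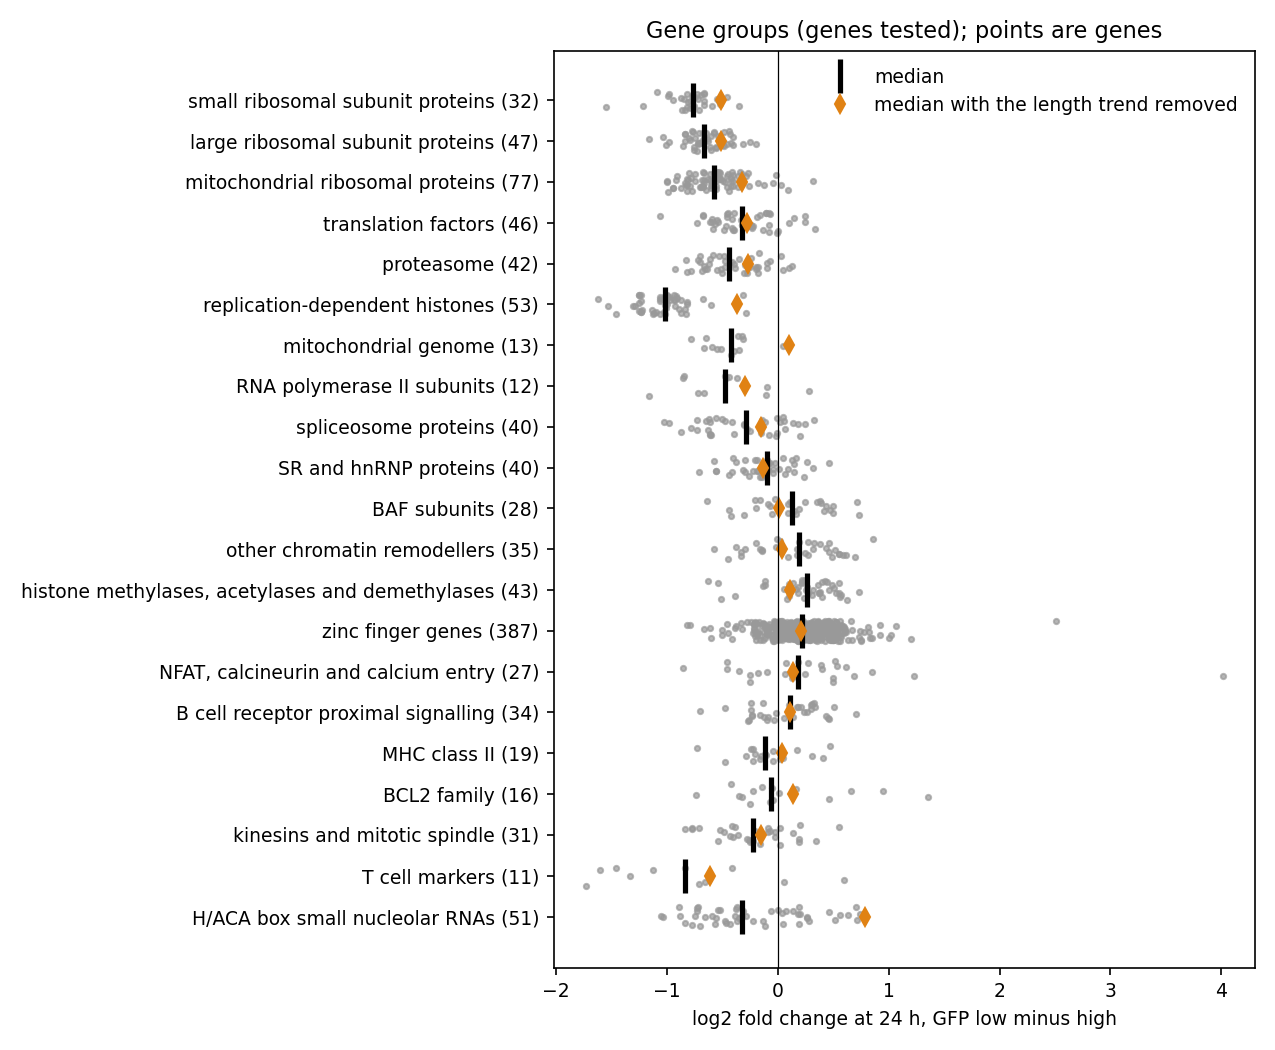
Log2 fold change at 24 h (GFP low minus high) of each tested gene (points) in 21 gene groups, with the group median (bar) and the median with the length trend removed (diamond). Ribosomal proteins, mitochondrial ribosomal proteins and replication histones lie below 0 by both medians, zinc finger genes lie at 0.22 and 0.21, and the mitochondrial genome, MHC class II, BCL2 family and H/ACA RNA medians change side.

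Calcium signalling through calcineurin and NFAT carries the antigen receptor signal to the nucleus. Of 27 such genes 16 were higher and 7 lower (13 and 8 with the length trend removed). NFATC2 (chr20:51386957-51562831), a transcription factor of this pathway, was low in GFP high, at 0.542, 0.411 and 0.374 CPM. In GFP low it was at 6.793, 6.491 and 7.658 CPM. The difference was 16.2-fold, or 4.01 ± 0.16 on the log2 scale, with an adjusted p of 3.01e-15 in edgeR's quasi-likelihood test, and 3.89 with the length trend removed. NFATC2 was 2.69 and 2.64 higher on the same scale at 48 and 72 h. The calcium release channel ITPR1, the entry channel ORAI2 and the osmotic family member NFAT5 were 1.61-, 1.45- and 1.41-fold higher. ITPR1 and NFAT5 went from 0.69 and 0.50 to 0.35 and 0.26 on the log2 scale with the trend removed. The calcium sensor CALM2 was 1.81-fold lower and the calcineurin subunit PPP3CB 1.38-fold lower.

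Immediate early factors lay in both directions, as did all tested genes. Of 21 tested 6 were higher and 6 lower, beside 29.3 and 28.5% of all tested genes. With the length trend removed 10 were higher and 3 lower, beside 37.5 and 24.1%. EGR1 was at 13.24, 11.9 and 13.66 CPM in GFP high and at 16.74, 16.69 and 17 CPM in GFP low, and KLF6 was 1.37-fold higher. EGR2 rose 3.59-fold but from a level of few counts, 0.136 to 0.440 CPM. IER2 was 1.32-fold lower (-0.40 on the log2 scale, -0.22 with the trend removed). Among the brakes on MAP kinases 8 of 22 were higher and 4 lower (8 and 5 with the trend removed). DUSP5, a nuclear ERK phosphatase, went from 31.43, 29.9 and 31.59 CPM to 64.44, 65.24 and 65.72 CPM. DAB2IP, a Ras GTPase activator, was 4.78-fold higher from 0.235 to 0.339 CPM, and the phosphatase DUSP2 was 1.45-fold lower (-0.54 on the log2 scale, -0.20 with the trend removed).

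Receptor-proximal B cell signalling was mixed, with 16 of 34 genes higher and 13 lower in both fits. PLCG2, the phospholipase that opens the calcium response, was at 455, 448.3 and 467.1 CPM in GFP high and at 627.7, 623.8 and 634.7 CPM in GFP low, or 0.46 on the log2 scale and 0.25 with the trend removed. VAV2 and the phosphatase PTPRC (CD45) were 1.42- and 1.35-fold higher. The complement receptor CR2 was 1.62-fold lower. In the list of FCRL and CD22 family receptors 7 of 14 were higher and 4 lower (9 and 4 with the trend removed). SIGLEC10 went from 17.61, 17.77 and 17.91 CPM to 38.74, 37.57 and 40.05 CPM, and LILRB1 was 1.38-fold higher. FCRLA, an intracellular member of the FCRL family, was lower, from 141.5, 140.8 and 142.5 CPM to 66.52, 65.4 and 66.6 CPM, and CD22 was 1.19-fold lower.

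SLAM receptors signal through adaptors such as the SH2D1A product. In the list of both, 3 of 8 genes were higher and 3 lower, SH2D1A among the latter (3 and 4 with the length trend removed). CD48 was 2.23-fold lower, SLAMF1 was 1.28-fold lower and SLAMF6 had a log2 fold change of 0.58. Positioning receptors had 9 of 15 higher and 5 lower in both fits. Besides CCR7, the follicle receptor CXCR5 was at 129.2, 133.3 and 147.7 CPM in GFP high and at 206.2, 196.9 and 219.8 CPM in GFP low. SELPLG, the selectin ligand, was 2.64-fold higher.

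MHC class II genes present antigen to T cells. Of 19, 9 were lower and 3 higher, but 6 were lower and 8 higher with the length trend removed, and the median turned from -0.12 to 0.03. HLA-DRA went from 1171, 1155 and 1158 CPM to 712.1, 685.3 and 699.7 CPM, or -0.73 on the log2 scale and -0.24 with the trend removed. The regulators RFX5 and CIITA were 1.33- and 1.24-fold higher, and so was the peptide-loading modulator HLA-DOA, at 1.38-fold. CIITA was at 0.03, with an adjusted p of 0.456 in edgeR's quasi-likelihood test, once the trend was removed. Immunoglobulin constant genes had 5 of 13 higher and 4 lower (9 and 2 with the trend removed). IGHA1 was 2.27-fold higher, from 13.48, 14.1 and 14.49 CPM, and IGHE 5.74-fold higher from 0.411 to 0.561 CPM. IGLC2 was 2.24-fold lower (-1.17 on the log2 scale, -0.33 with the trend removed). IGKC was 1.28-fold lower, and its log2 fold change turned from -0.35 to 0.44 with the length trend removed. Constant genes of one class share sequence, so reads may be split among them.

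Cell survival genes of the BCL2 family included 5 of 16 higher and 6 lower, or 8 higher and 1 lower with the length trend removed. BMF (chr15:40087890-40108892), a BH3-only protein that promotes apoptosis, went from 25.5, 27.65 and 28.17 CPM to 53.8, 51.6 and 52.21 CPM. It was 1.93-fold higher, 0.95 ± 0.05 on the log2 scale, with an adjusted p of 7.27e-14 in edgeR's quasi-likelihood test. The BH3-only genes BCL2L11 and HRK were 1.38- and 2.55-fold higher, as was the survival gene BCL2 at 1.58-fold. The survival gene MCL1 was 1.19-fold lower. FOXO factors, which are held out of the nucleus by PI3 kinase signalling, and their targets had 8 of 14 higher and 5 lower (8 and 3 with the trend removed). FOXO3 and FOXO1 were 1.48- and 1.44-fold higher. PIK3IP1, an inhibitor of PI3 kinase, was 1.65-fold higher.

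Markers of cell identity were checked in the same libraries. All 14 B cell and germinal centre markers were measured, 4 higher and 9 lower (5 and 6 with the length trend removed), with PAX5 1.19-fold higher (0.26 on the log2 scale, 0.11 with the trend removed). Of 16 plasma cell markers 14 were tested, 5 higher and 8 lower (5 and 7 with the trend removed). Besides PRDM1 and JCHAIN, IRF4 was 2.10-fold higher, CD38 1.89-fold lower and XBP1 1.39-fold lower (-0.47 on the log2 scale, -0.29 with the trend removed), while SDC1 had 0 counts in GFP high and 2 in GFP low over 3 libraries each. T cell markers were lower in 8 of 11 tested genes and higher in none (6 and none with the trend removed). LCK was at 12.73, 14.19 and 14.92 CPM in GFP high and at 5.831, 5.639 and 7.452 CPM in GFP low, and UBASH3A and TRAC were 3.33- and 2.52-fold lower, TRAC at -1.34 on the log2 scale and -0.76 with the trend removed. TRBC2 was 1.64-fold lower, but -0.05 with the length trend removed. The summed level of the 11 was 63.6 to 66.1 CPM in GFP high and 37.5 to 41.0 CPM in GFP low. CD2 and CD8A had 0 counts in all 6 libraries. Of 13 myeloid markers 5 were tested, with CD33 2.35-fold and FOLR2 3.05-fold lower and ITGAM 3.34-fold higher, all under 5 CPM, while S100A8 and ELANE had 0 counts. Of 8 NK cell markers 1 was tested, and it was not called. The part of these markers in the other results was not tested.

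The 24 h values of RNAs of the mitochondrial genome and small nuclear RNAs depended on the treatment of length. Of 13 mitochondrial mRNA genes 12 were lower and none higher. MT-CO2 was 1.72-fold lower and MT-ND2 1.43-fold lower. With the length trend removed 9 were higher and 1 lower, and MT-CO2 and MT-ND2 were at -0.08 and 0.035 on the log2 scale. At 48 h all 13 were lower, beside 13.2% of all genes, and the median was -0.42 as at 24 h. At 72 h 12 were higher, beside 12.9% of all genes, with a median of 0.53. Of 60 C/D box small nucleolar RNAs 18 were lower and 1 higher, and of 51 H/ACA RNAs likewise 18 and 1. With the trend removed 42 and 36 were higher and none lower. At 48 h 13 and 11 were lower and 1 of each higher, beside 13.2 and 10.6% of all genes. At 72 h 8 and 11 were higher and none lower, beside 12.9 and 13.5%. SNORD17 turned from -0.42 to 0.66 and SNORA73B from -0.88 to 0.24. The spliceosomal RNA gene RNU5F-1 turned from -0.99 to 0.13, and RN7SL1, of the signal recognition particle, from -0.80 to 0.19. Among long nuclear RNAs MALAT1 was 1.32-fold higher and NEAT1 1.13-fold lower, and their log2 fold changes went from 0.40 and -0.18 to 0.27 and -0.47 with the trend removed. Reads of an intronic small RNA and of its host gene cannot be fully told apart.

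The 24 h difference was compared with the mean of the 48 and 72 h differences in the same fit. For 3802 genes it was more positive (23.1%) and for 3940 more negative (23.9%), again by the quasi-likelihood test of edgeR with adjusted p. Of the 4835 genes higher at 24 h, 22.0% were higher at 48 h and 27.2% at 72 h, 14.2% at both, and 10.7 and 7.49% were lower. Of the 4696 lower genes 24.4 and 29.3% were lower at 48 and 72 h, 14.9% at both, and 6.73 and 7.58% were higher. Over all tested genes 10.6 and 12.9% were higher at 48 and 72 h, and 13.2 and 13.5% were lower.

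Replication histones had a median difference of -1.35 in this comparison, beside 0.02 for all tested genes. The 49 genes that were lower at 24 h all had a more negative difference there, of which the 24 h effect is itself a part. So did 47 of 47 large and 31 of 32 small ribosomal subunit genes, beside 23.9% of all genes. Of the 53 tested, 35 were higher in GFP low at 48 h and 46 at 72 h, beside 10.6 and 12.9% of all genes. H3C8 was at 132.1, 137.2 and 139.9 CPM in GFP high and at 56.03, 56.03 and 61.1 CPM in GFP low at 24 h. At 72 h its means were 104.3 CPM in GFP high and 173 CPM in GFP low. H2BC11 differed by -1.13 ± 0.03 on the log2 scale at 24 h (-0.58 with the length trend removed) and by 0.60 ± 0.03 and 0.81 ± 0.03 at 48 and 72 h. Some genes with a higher level at 24 h also lost or turned this difference. SYNE2 (chr14:63761899-64226433), a giant nuclear envelope linker, was at 266.7, 266.5 and 260.9 CPM in GFP high and at 539.6, 539.9 and 519.6 CPM in GFP low at 24 h. Its log2 fold change was 1.01 ± 0.02 at 24 h, 0.43 ± 0.02 at 48 h and -0.13 ± 0.02 at 72 h, and 0.67 at 24 h with the length trend removed. Other differences kept their direction. PRDM1 was at 1.41, 1.34 and 1.47 at the 3 times, RAB27B at 1.71, 1.38 and 1.52, AFF1 at 1.19, 1.34 and 1.40, and GRAP at -1.32, -1.21 and -1.21. Between 24 h and the later mean, RAB27B and AFF1 were called as differing, by 0.26 and -0.18, and PRDM1 and GRAP were not.

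**Figure D5:**
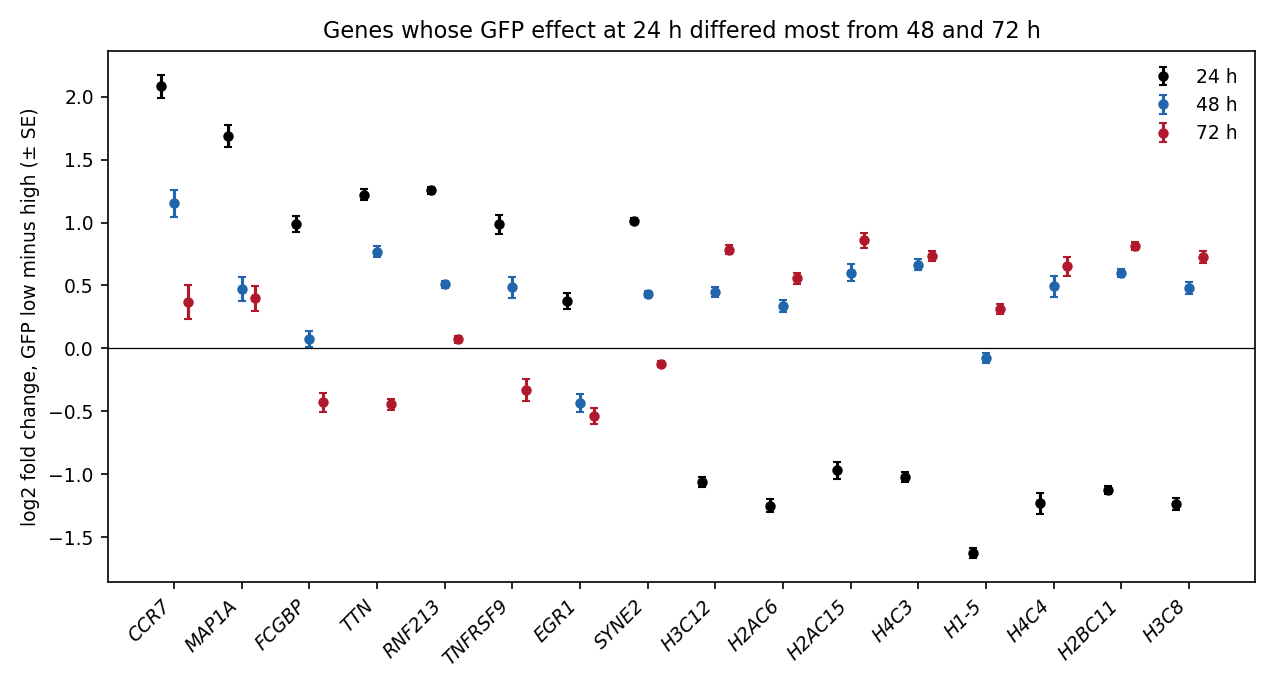
Log2 fold change (GFP low minus high) ± SE at 24, 48 and 72 h for the 16 genes whose 24 h difference departed most from the later mean among well-measured genes. The 8 histone genes lie below 0 at 24 h, and H3C8 and H2BC11 lie above 0 at 48 and 72 h.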

How the data were processed

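Per the labels' protocols, libraries were made from total RNA (RNeasy Plus Micro kit) after depletion of ribosomal RNA (KAPA RNA HyperPrep, RiboErase). The tools named are STAR, featureCounts of Subread, FastQC and R 4.2.1, with the build hg38, per the submitters' processing notes. The authors deposited whole-number counts per gene, not normalized, in 1 table whose file headers are those of featureCounts. The strand setting and the treatment of reads with several positions were not stated in the sources used here, so a gene and its antisense partner cannot be told apart. One entry broken over 3 lines was left out, and 60707 genes were read. Coordinates (hg38) were read from the deposited table, symbols matched for 60462 genes, and types come from GENCODE release 29.

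Counts of all 18 libraries were fitted in edgeR 4.0.16 (R 4.3.3) with 6 group means, trimmed-mean scaling and 12 residual degrees of freedom, so that the groups share 1 estimate of the spread. filterByExpr kept 16474 genes, and calls were made below a Benjamini-Hochberg adjusted p of 0.05, taken over all of them, in 2-sided quasi-likelihood tests. SE was obtained by dividing the size of the log2 fold change by the root of F. A biological coefficient of variation of 3.49% lets small differences pass. The fit was tested on simulated data. Length trends were removed with a spline of log2 summed exon length in each library, used as an offset.

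Column names give the group and a library set (unnumbered, 1 or 2), but do not tell the group's 3 samples apart. Same-set libraries deviated together from their group means, with correlations of 0.224 to 0.547 over 45 pairs (0.264 to 0.521 at 24 h), against -0.417 to 0.0307 for 90 pairs of different sets. The sets therefore pair the libraries, from the data and the column names, and a fit with the set as a block was run. Libraries of 1 group differed by more than sampling noise (median ratio of 1.45 to 3.06), and the fit counted each as 1. This spread does not show that they come from separate cultures.

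The members and lists were chosen with earlier results of these data known. Named genes are SMARCA4, SMARCA2, the 15 called genes with the largest fold change in each direction and the 8 with the largest difference from later times in each direction, with at least 10 CPM and protein coding. In each list up to 4 members per direction by adjusted p and the largest change could be named. SDC1, CD2, CD8A, S100A8 and ELANE were named after their values were seen. Promoters come from RefSeq (GRCh38.p14). The letters CACGTG, TGACGTCA and GGGCGG were also searched and are not described.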

Additional observations from a re-analysis of the deposited data

Results flagged for a closer look

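In 16 genes the GFP difference at 24 h departed from the mean difference at 48 and 72 h by edgeR's quasi-likelihood test of that contrast. They are the 8 with the largest departure in each direction among well-measured protein-coding genes, so their sizes were used to choose them. Values are the log2 fold change (GFP low minus high) at 24 h minus the mean of the later ones. Groups of 3 libraries were not searched for outliers.

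More positive at 24 h were CCR7 by 1.32, MAP1A by 1.25, FCGBP (an IgG Fc-binding mucin-like protein) by 1.16, TTN by 1.06, RNF213 by 0.97, TNFRSF9 (the costimulatory receptor 4-1BB) by 0.91, EGR1 by 0.86 and SYNE2 by 0.86. FCGBP was at 13.04, 14.54 and 13.66 CPM in GFP high and at 26.72, 27.28 and 27.78 CPM in GFP low at 24 h, and its log2 fold change was -0.43 at 72 h. EGR1 was higher in GFP low at 24 h and lower at 48 and 72 h, at -0.43 and -0.54. TNFRSF9 was at 0.99, 0.49 and -0.33 at the 3 times.

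More negative at 24 h were the histone genes H3C8 with -1.84, H2BC11 with -1.83, H4C4 with -1.81, H1-5 with -1.74, H4C3 with -1.72, H2AC15 with -1.70, H2AC6 with -1.70 and H3C12 with -1.68. The 7 core histone genes among them were lower in GFP low at 24 h and higher at 48 and 72 h. The linker histone gene H1-5 was not called at 48 h (-0.08) and was higher at 72 h (0.31). The length trend of the 24 h libraries moves with these values, since the exon sums of 6 of the 8 are 403 to 1046 bp, and its part in them was not tested.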

How the results depend on the processing

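The 6 counts of called genes stayed within 1.5 times their reported value under the library set as a replicate block, DESeq2 size factors, upper quartile factors, the DESeq2 Wald test, no filter on low counts and without each library, or each set of 2 libraries, at 24 h. The same holds for the 4 counts that the fit of the 24 h libraries alone can give. Without 1 library, 4283 to 4730 genes were higher and 4293 to 4516 lower, and 319 to 500 were at least 2-fold lower. The block changed no call of a named gene.

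Exceptions were mostly 2-fold counts. Removal of the length trend gave 1596 genes higher and 96 lower by 2-fold or more, and 1651 and 111 with a replicate block as well. That last fit found a more positive 24 h effect in 5783 genes. Total counts gave 788 and 246, and a minimum mean of 10 CPM, which tests fewer genes, 40 and 58. Spearman's correlation with length, across genes, was 0.553 over genes of at least 10 CPM and 0.319 with genomic span. With the length trend removed, 6 named genes changed sign: IGKC to 0.44, RN7SL1 to 0.19, SNORA73B to 0.24, SNORD17 to 0.66, RNU5F-1 to 0.13 and MT-ND2 to 0.035. With the replicate block added these were 0.44, 0.18, 0.23, 0.66, 0.13 and 0.038. The cause was not tested. The trend was fitted on protein-coding genes of at least 1 CPM, so at the short end, where small RNAs and mitochondrial genes lie, few genes set it. Total counts also turned the medians of the Mediator, SR and hnRNP, nucleolar, SLAM, MHC class II, G1 control, BCL2 and B cell identity lists from below 0 to between 0.004 and 0.128. Genes under 1 CPM rest on few counts.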
